A study of Danio rerio with 28 samples.

Results

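The SoxB1 genes sox19b, sox19a, sox3 and sox2 of the zebrafish were followed through the first 6 h of development, in whole embryos of the AB strain. They were found by matching the 4 symbols, ignoring case, to the Ensembl gene identifiers of the count tables, which gave 4 of the 33737 identifiers: ENSDARG00000040266 (sox19b), ENSDARG00000010770 (sox19a), ENSDARG00000053569 (sox3) and ENSDARG00000070913 (sox2). The members were chosen by family, not by a measured value, though with earlier results of these data known. The study holds 28 RNA-seq libraries in 14 groups of 2.

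Poly(A)-selected RNA was sequenced in 10 groups. Embryos injected with a morpholino (MO in the labels, an antisense oligomer that blocks translation or splicing of its target) against ybx1 were taken at 3, 4 and 6 h post fertilisation (hpf), embryos injected with a MO against pabpc1a at 4 and 6 hpf, and wild-type (WT) embryos at 0, 2, 3, 4 and 6 hpf. The ybx1 samples carry only the word MO in their labels, and their target comes from the series' design text. No control morpholino is named, so injection itself and loss of the target cannot be told apart. RNA depleted of ribosomal RNA was sequenced in 4 groups: embryos that received alpha-amanitin (0.2 ng), an inhibitor of RNA polymerase II, at the one-cell stage and were taken at 2, 4 and 6 hpf, and WT embryos at 4 hpf. For this set 100 embryos were collected per time point, in duplicates. Nothing states that the 2 libraries of a group came from separate clutches, so the p-values measure only the spread between these samples.

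SoxB1 proteins are transcription factors with an HMG box that binds DNA. In the zebrafish, sox19b mRNA is laid down in the egg, and its protein acts with Pou5f3 and Nanog when the embryo's own genome is switched on. The embryo then transcribes sox19a, sox3 and sox2, whose products mark and maintain the prospective neural ectoderm. Ybx1 is a Y-box protein that binds maternal mRNAs, and pabpc1a encodes a cytoplasmic poly(A)-binding protein.

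Counts summed to 48204100 to 100000375 per poly(A) library and to 39882963 to 66381933 per rRNA-depleted library. A single identifier without a symbol took 22.2 to 46.1% of each poly(A) library. Levels are given in CPM, the count of a gene relative to the TMM-scaled total of the tested genes, not divided by gene length, so they compare libraries and not genes. The 2 poly(A) WT libraries at 4 hpf stood apart from each other, with 2078 genes at least 2-fold apart against 14 to 736 in the other groups. Injection with the ybx1 MO gave ybx1 mRNA levels of 373 to 2611 CPM, against 238 to 2368 CPM in WT embryos of the same hours, and no difference passed the test. The mRNA of pabpc1a was lower in pabpc1a MO than in WT embryos at 4 hpf (log2 fold change -0.59 ± 0.15 SE, adjusted p = 0.00737 in edgeR's quasi-likelihood test), and so was that of ybx1 (-0.58 ± 0.18, adjusted p = 0.0194). Pabpc1a differed by -0.14 ± 0.15 from WT embryos at 3 hpf and, at 6 hpf, by -0.20 ± 0.15 from WT embryos of that hour, neither called. Since a morpholino can act without lowering its target mRNA, these levels do not check the knockdown. All 4 SoxB1 genes passed the filter on low counts in both kinds of library.

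In WT embryos the reads of the family moved from sox19b, present from fertilisation, to sox19a, sox3 and sox2. Sox19a and sox3 were first found above trace levels at 3 hpf, and sox2 at 6 hpf. Sox19b had 97.1 and 95.8 CPM at 0 hpf, 455 and 412 at 2 hpf, 416 and 437 at 3 hpf, 134 and 262 at 4 hpf, and 39.7 and 46.8 at 6 hpf. Its replicates lay close together except at 4 hpf. Sox19a had 0.0160 and 0.134 CPM at 0 hpf, 0.0703 and 0.0934 at 2 hpf, 8.53 and 18.8 at 3 hpf, 190 and 78.2 at 4 hpf, and 447 and 439 at 6 hpf. The values at 0 hpf rested on 1 and 5 reads.

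Sox3 also rose. It had 0.272 and 0.482 CPM at 0 hpf, 0.484 and 0.573 at 2 hpf, 14.2 and 32.3 at 3 hpf, 131 and 83.0 at 4 hpf, and 359 and 311 at 6 hpf. Sox2 stayed at 0.0803 to 0.227 CPM from 0 to 3 hpf, had 0.651 and 0.128 CPM at 4 hpf, and reached 81.9 and 90.04 CPM at 6 hpf. In poly(A) libraries 3 reads correspond to 0.0234 to 0.0870 CPM, so the early sox2 levels stand only a little above that floor.

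**Figure D1:**
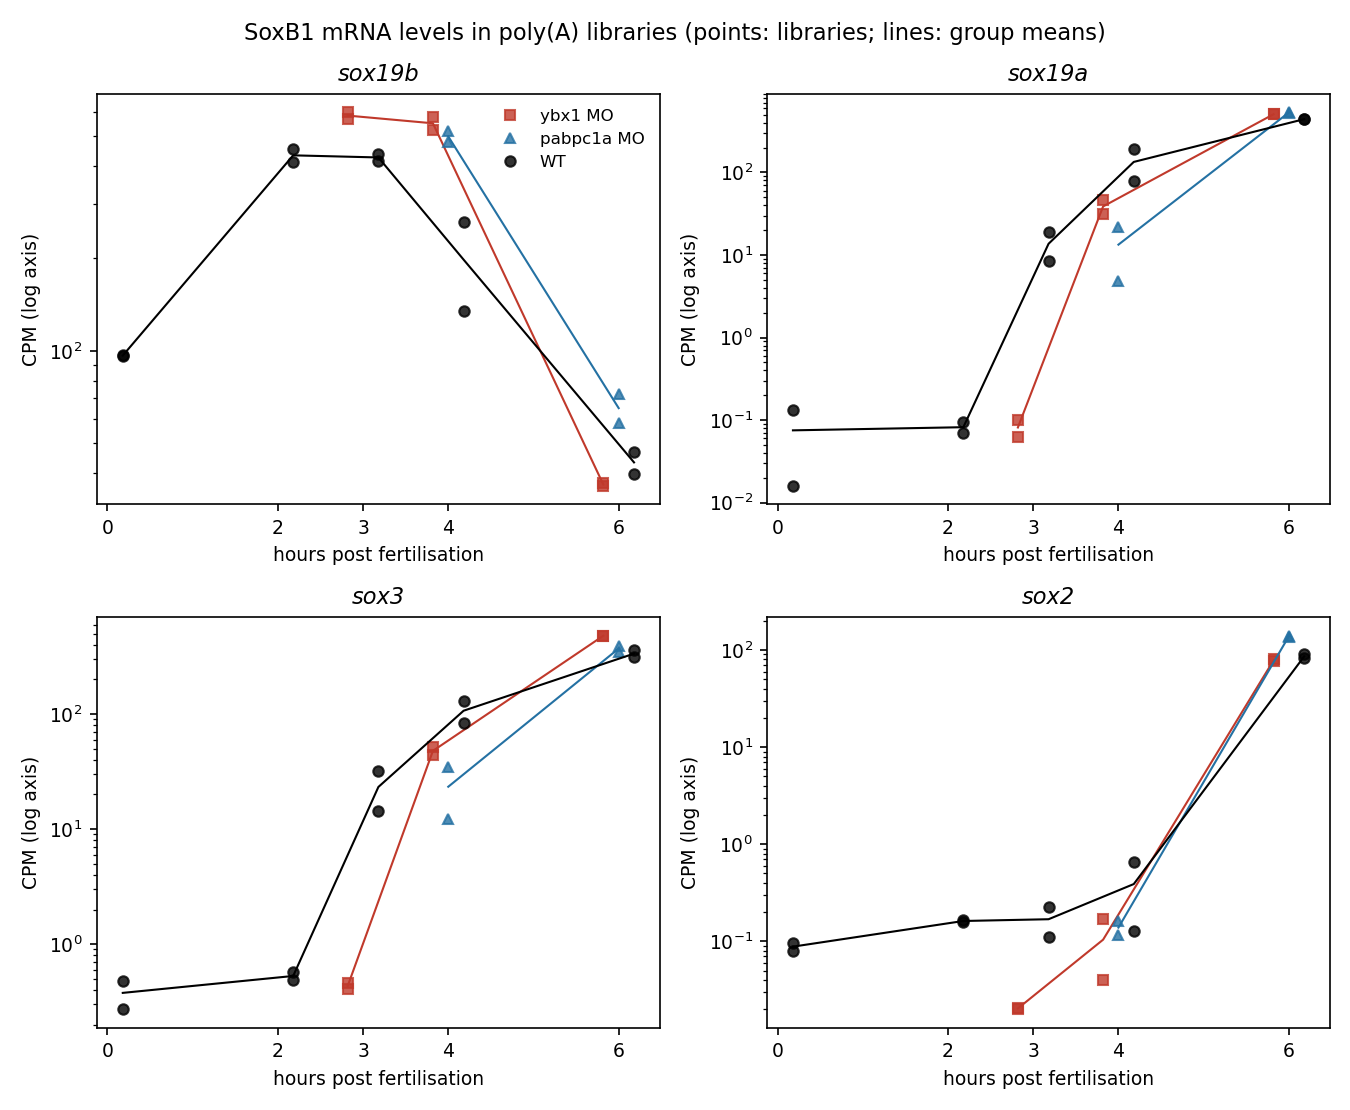
Levels of the 4 SoxB1 genes in poly(A) libraries against hours post fertilisation, in CPM on a log axis, with a point per library and lines through the means of 2 (squares, ybx1 MO; triangles, pabpc1a MO; circles, WT, shifted sideways for clarity). At 4 hpf the sox19b points lie higher and those of sox19a and sox3 lower in both knockdowns than in WT, while at 6 hpf no difference from WT passed the test.

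Between successive WT stages, a call is an adjusted p under 0.05 in edgeR's quasi-likelihood test, the p-values being adjusted (Benjamini-Hochberg) over every tested gene of the kit. From 0 to 2 hpf only sox19b was called among the 4 genes, where 34.3% of all tested genes were. Its level at 2 hpf was 4.49 times that at 0 hpf (log2 fold change 2.17 ± 0.22 SE, adjusted p = 1.34e-06). Poly(A) selection also responds to the length of the poly(A) tail, which was not measured, and no rRNA-depleted library at 0 hpf was analysed here. Sox19a, sox3 and sox2 differed by 0.37 ± 2.09, 0.55 ± 0.74 and 0.84 ± 0.86.

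From 2 to 3 hpf, 2 of the 4 genes were called, against 4.59% of all tested genes. Sox19a rose 169-fold (log2 fold change 7.403 ± 0.98, adjusted p = 0.00201 in edgeR's quasi-likelihood test) and sox3 rose 44.3-fold (5.47 ± 0.56, adjusted p = 3.57e-04). Sox19b did not differ between these stages beyond its error (-0.02 ± 0.21), and neither did sox2 (0.06 ± 0.66). The sox19a call missed the threshold when the first WT 2 hpf library was left out (7.17, adjusted p = 0.0573).

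From 3 to 4 hpf, 3 of the 4 genes were called, against 27.5% of all tested genes. Sox19b fell by 1.11 ± 0.21 on the log2 scale, whereas sox19a rose by 3.30 ± 0.66 and sox3 by 2.20 ± 0.45 (adjusted p = 0.00136, 0.00423 and 0.00406 in edgeR's quasi-likelihood test). The first WT library at 4 hpf was further along this course than the second for all 3 genes, and it held more of the enveloping layer markers, whose sum was 1754 CPM in the first and 554 CPM in the second. Sox19b fell by 1.67 without the second WT 4 hpf library and by 0.74 without the first, the ends of its range over all settings. Poly(A) tail length was not measured, and its part in this fall was not tested. In rRNA-depleted WT libraries at 4 hpf, another kit, sox19b had 681 and 676 CPM, not tested against poly(A) libraries. When only these 2 groups entered the fit, none of the 3 calls held (adjusted p from 0.0660 to 0.109). That fit called no tested gene at all, so the loss is not particular to these 3. The sox19a call also ended without the first WT 3 hpf library. Sox2 differed by 1.13 ± 0.59, its groups overlapped, and it was called only without the second WT 4 hpf library (adjusted p = 4.75e-04) among 11 alternatives.

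All 4 genes were called from 4 to 6 hpf, where 59.7% of all tested genes were. Sox2 rose 229-fold (7.84 ± 0.50, adjusted p = 1.87e-08), sox19a rose 3.30-fold (1.72 ± 0.62, adjusted p = 0.0329) and sox3 rose 3.14-fold (1.65 ± 0.44, adjusted p = 0.00669), all in edgeR's quasi-likelihood test. Sox19b fell by 2.20 ± 0.22 on the log2 scale, to 0.218 of its poly(A) level at 4 hpf. The part of poly(A) tail length in this fall was not tested. Without the second WT 4 hpf library neither sox19a (1.22, adjusted p = 0.194) nor sox3 (1.36, adjusted p = 0.0719) was called, and the sox19a call also ended without either WT 6 hpf library (adjusted p = 0.0762 and 0.0722) and with no filter on low counts (0.0549).

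The share that each gene took of the reads of all 4 does not depend on how libraries are scaled. Sox19b held 99.6 and 99.3% of these reads at 0 hpf in WT embryos, 99.8% in both libraries at 2 hpf, 94.8 and 89.5% at 3 hpf, 29.5 and 61.9% at 4 hpf, and 4.28 and 5.28% at 6 hpf. At 4 hpf sox19a held the largest share in the first library and sox19b in the second. In rRNA-depleted WT embryos at 4 hpf sox19b held 74.5% ± 0.297, sox19a 15.1% ± 0.113 and sox3 10.3% ± 0.205 (SD, n = 2), in another kit and not tested against the poly(A) libraries. At 6 hpf sox19a held 48.8% ± 0.94, sox3 36.9% ± 2.59 and sox2 9.49% ± 0.94 (SD, n = 2). Sox19a held at most 0.139% at 0 and 2 hpf, when sox19b was plentiful, and this bounds the share of sox19b reads that the authors' counting could have placed on its paralog sox19a.

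**Figure D2:**
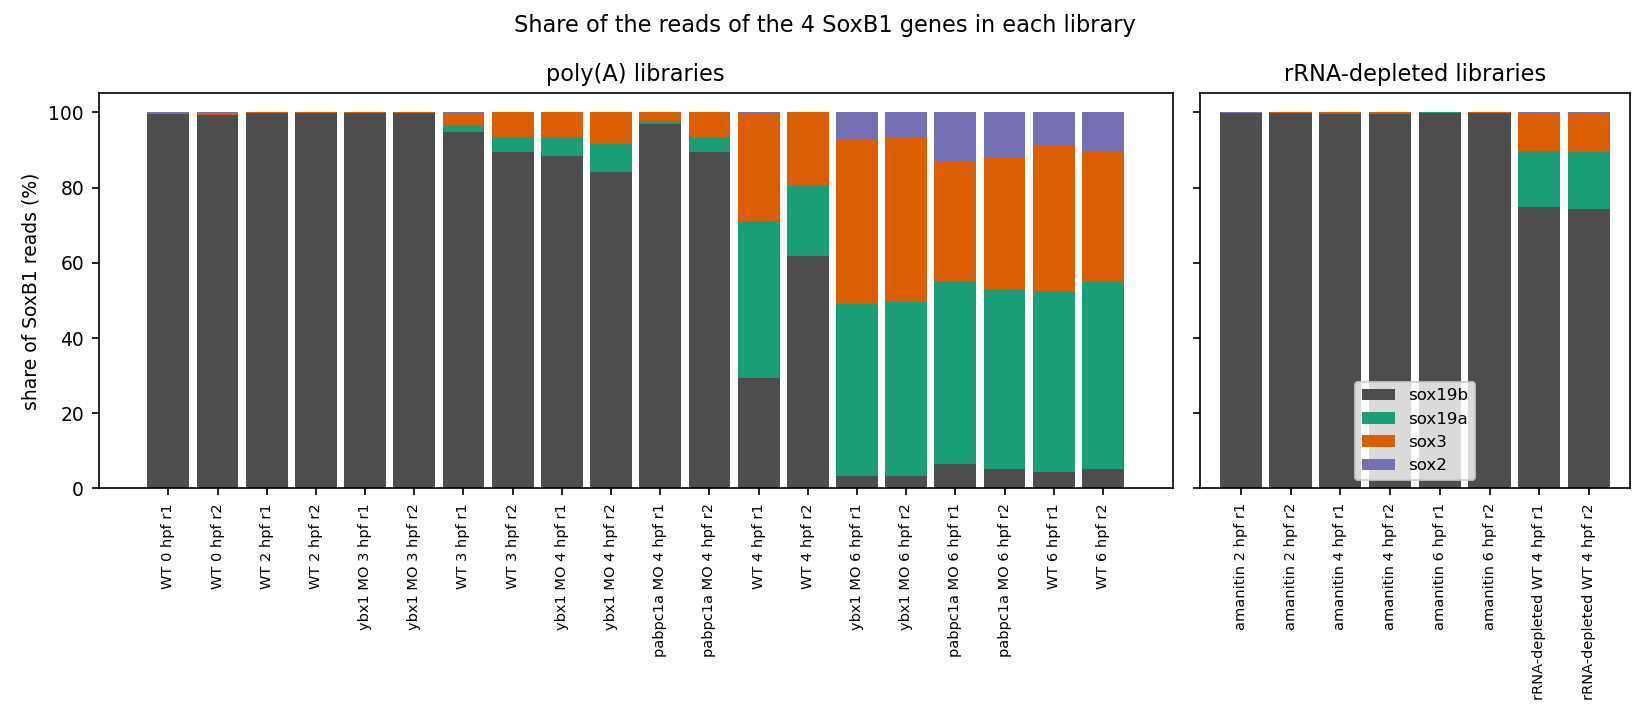
Share of the summed reads of sox19b, sox19a, sox3 and sox2 in every library, in percent, with a bar per library (r1 and r2, replicates 1 and 2). Sox19b fills nearly the whole bar until 3 hpf and in amanitin libraries, and a few percent at 6 hpf in all 3 poly(A) conditions.

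In poly(A) libraries of WT embryos the summed level of the family rose less than its zygotic members did. It was 97.5 and 96.5 CPM at 0 hpf, 456 and 413 at 2 hpf, 439 and 489 at 3 hpf, 456 and 423 at 4 hpf, and 928 and 887 at 6 hpf. Between 2 and 4 hpf the poly(A) WT libraries stayed between 413 and 489 CPM. The sum was 911 and 910 CPM in rRNA-depleted WT libraries at 4 hpf, another kit, not tested against poly(A) libraries. The part of poly(A) tail length in these sums was not tested. There were 0.599 and 0.584 sox19a reads per sox3 read at 3 hpf, 1.46 and 0.943 at 4 hpf, and 1.24 and 1.41 at 6 hpf, so the ratio was higher at 4 and 6 hpf than at 3 hpf.

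In ybx1 MO embryos at 3 hpf, sox19a and sox3 had not left their trace levels. Sox19a had 0.0622 and 0.1002 CPM in ybx1 MO embryos, 16 reads over both libraries, against 8.53 and 18.8 CPM in WT embryos. Sox3 had 0.456 and 0.411 CPM in ybx1 MO embryos, against 14.2 and 32.3 CPM in WT embryos. No ybx1 MO library reached a WT library of the same hour for either gene. How many of all tested genes were separated in this way was not counted. WT embryos at 2 hpf had 0.0703 and 0.0934 CPM of sox19a and 0.484 and 0.573 CPM of sox3.

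These 2 of the 4 genes were called at 3 hpf, where 14.8% of all tested genes were. Sox19a was 165-fold lower in ybx1 MO embryos (log2 fold change -7.36 ± 0.98, adjusted p = 7.86e-04) and sox3 53.5-fold lower (-5.74 ± 0.57, adjusted p = 9.05e-05), by edgeR's quasi-likelihood test. Both calls held in each of the 12 alternatives tried, with adjusted p up to 0.0178 for sox19a and 0.00458 for sox3. Sox19b had 569 and 600 CPM in ybx1 MO embryos, against 416 and 437 CPM in WT embryos. Its 2 groups did not overlap, but the difference of 0.45 ± 0.21 did not pass (adjusted p = 0.160), though it did when only these 2 groups entered the fit (6.41e-04) and in a fit without WT and pabpc1a MO at 4 hpf (0.00140, an alternative chosen after seeing the data). Sox2 had 2 reads in each ybx1 MO library, 0.0207 and 0.02003 CPM, against 0.227 and 0.111 CPM in WT embryos, a difference of -2.96 ± 0.99 (adjusted p = 0.0622) that DESeq2 (0.00543) and the fit without those 2 groups (0.00266) did call. The 9 enveloping layer markers, of an outer cell layer that forms early, summed to 7.52 and 5.69 CPM in ybx1 MO embryos, against 65.6 and 131 CPM in WT embryos at 3 hpf, with 3 of 9 lower, where 14.8% of all tested genes were called. Their part in the SoxB1 differences was not tested.

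At 4 hpf poly(A) libraries of ybx1 MO embryos held more sox19b and less sox19a than those of WT embryos. Poly(A) tail length, to which the selection responds, was not measured, and its part in these differences was not tested. In rRNA-depleted WT libraries at 4 hpf, another kit, sox19b had 681 and 676 CPM. The knockdowns were not sequenced with that kit. Sox19b had 580 and 523 CPM in ybx1 MO embryos, against 134 and 262 CPM in WT embryos. Sox19a had 31.1 and 46.5 CPM in ybx1 MO embryos, against 190 and 78.2 CPM in WT embryos. Sox3 had 44.2 and 51.6 CPM in ybx1 MO embryos, against 131 and 83.0 CPM in WT embryos. Sox2 had 0.0396 and 0.168 CPM in ybx1 MO embryos, against 0.651 and 0.128 CPM in WT embryos, and its groups overlapped.

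At 4 hpf 3 of the 4 genes were called between ybx1 MO and WT embryos, where 32.2% of all tested genes were. Sox19b was 2.78-fold higher in ybx1 MO embryos (1.48 ± 0.21, adjusted p = 1.60e-04 in edgeR's quasi-likelihood test). Sox19a was lower by -1.79 ± 0.62 (adjusted p = 0.0488) and sox2 by -1.96 ± 0.66 (adjusted p = 0.0367), and sox3 missed the threshold at -1.16 ± 0.44 (adjusted p = 0.0625). DESeq2 called sox3 (adjusted p = 0.00979). The sox19a and sox2 calls ended without the first WT 4 hpf library, where the changes were -1.02 (adjusted p = 0.340) and -0.43 (adjusted p = 0.634), without the first ybx1 MO library (0.222 and 0.284) and with no filter on low counts (0.0753 and 0.0835), and that of sox19a also without the second ybx1 MO library (0.105). With only the 2 groups in the fit none of the 3 calls held (adjusted p = 0.0561 for sox19b, 0.0687 for sox19a and 0.289 for sox2). That fit also called far fewer of all tested genes. Without any 1 of the 4 libraries sox19b stayed called.

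In poly(A) libraries of pabpc1a MO embryos at 4 hpf, sox19b was higher and sox19a and sox3 were lower than in those of WT embryos. Here too poly(A) tail length was not measured, and its part in these differences was not tested. Sox19b had 522 and 478 CPM in pabpc1a MO embryos, against 134 and 262 CPM in WT embryos. Sox19a had 4.83 and 21.9 CPM in pabpc1a MO embryos, against 190 and 78.2 CPM in WT embryos. Sox3 had 12.3 and 34.4 CPM in pabpc1a MO embryos, against 131 and 83.0 CPM in WT embryos. The pabpc1a MO libraries lay far from each other for sox19a.

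Of the 4 genes these 3 were called, where 34.3% of all tested genes were. Sox19b was 2.52-fold higher in pabpc1a MO embryos (1.33 ± 0.21, adjusted p = 2.67e-04), sox19a 10.04-fold lower (-3.33 ± 0.66, adjusted p = 0.00321) and sox3 4.57-fold lower (-2.19 ± 0.45, adjusted p = 0.00329), by edgeR's quasi-likelihood test. Sox2 had 0.117 and 0.161 CPM in pabpc1a MO embryos, against 0.651 and 0.128 CPM in WT embryos, and was not called (-1.41 ± 0.61), but DESeq2 called it (adjusted p = 0.0205). All 3 calls held without any 1 library, with sox19a between -4.80 and -2.52, the lowest value without the second pabpc1a MO library and the highest without the first WT library. None held when only the 2 groups entered the fit (adjusted p from 0.0788 to 0.0822). That fit called no tested gene at all, so the loss is not particular to these 3.

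**Figure D3:**
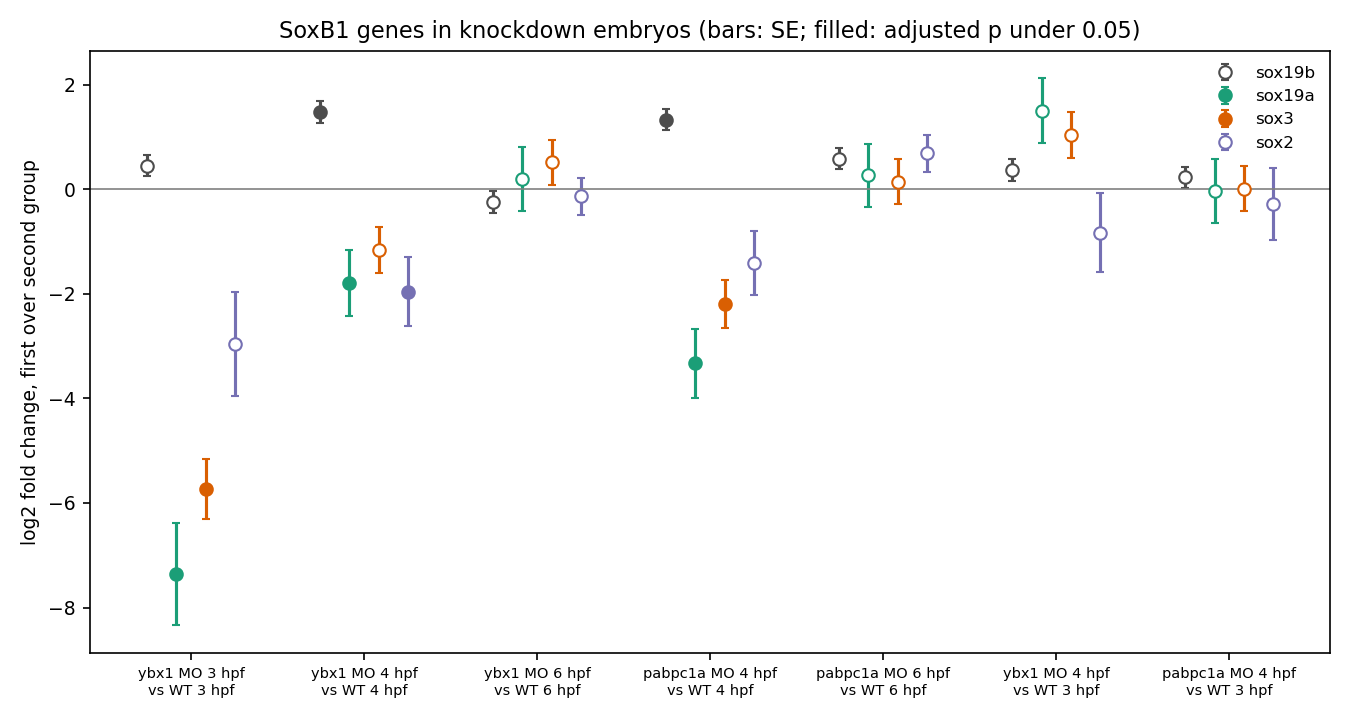
Log2 fold change of each SoxB1 gene between knockdown and WT embryos, with bars of ± SE, filled where the adjusted p in edgeR's quasi-likelihood test was under 0.05. The 2 comparisons at the right set knockdown embryos at 4 hpf against WT embryos at 3 hpf, where no gene was called.

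Most enveloping layer markers were also lower at 4 hpf, and so was a smaller part of the yolk syncytial layer markers. The enveloping layer markers summed to 226 and 313 CPM in ybx1 MO embryos and to 58.5 and 161 CPM in pabpc1a MO embryos, against 1754 and 554 CPM in WT embryos, with none of the 9 at 0 in any of these libraries. The 7 yolk syncytial layer markers summed to 30.0 and 41.0 CPM in ybx1 MO embryos and to 16.8 and 48.7 CPM in pabpc1a MO embryos, against 280 and 144 CPM in WT embryos, and slc26a1 of these 7, named after its values were seen, was at 0 in the first library of each knockdown. Of the enveloping layer markers, 7 of 9 were lower in ybx1 MO and 8 of 9 in pabpc1a MO embryos, and of the yolk syncytial layer markers 3 of 7 were lower in each, where 32.2 and 34.3% of all tested genes were called. In bulk samples fewer cells of a type and less RNA per cell cannot be told apart, and the part of these layers in the SoxB1 differences was not tested.

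Knockdown embryos at 4 hpf were also set against WT embryos 1 h younger. Between ybx1 MO embryos at 4 hpf and WT embryos at 3 hpf, 0 of the 4 genes were called, where 14.0% of all tested genes were. The log2 fold changes were 0.37 ± 0.21 for sox19b, 1.502 ± 0.62 for sox19a, 1.04 ± 0.44 for sox3 and -0.83 ± 0.76 for sox2. Sox19a and sox3 were past an unadjusted threshold of 0.05 in edgeR's quasi-likelihood test, where 6294 of 22377 tested genes were. DESeq2 called sox3, and in the fit without WT and pabpc1a MO at 4 hpf sox19b, sox19a and sox3 were called.

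Between pabpc1a MO embryos at 4 hpf and WT embryos at 3 hpf, 0 of the 4 genes were called either, where 5.23% of all tested genes were. None of the 4 was called by DESeq2 or past an unadjusted p of 0.05 in edgeR, where 4421 of 22377 tested genes were. Sox19a differed by -0.03 ± 0.62, sox3 by 0.01 ± 0.43, sox19b by 0.23 ± 0.21 and sox2 by -0.28 ± 0.69. These errors leave room for sizeable changes: leaving out 1 library at a time moved sox19a between -1.502 and 0.68, the values without the second and the first pabpc1a MO library.

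Within each knockdown the zygotic genes then rose. From 3 to 4 hpf in ybx1 MO embryos, 2 of the 4 genes were called, against 7.76% of all tested genes, with sox19a up by 8.86 ± 0.99 and sox3 by 6.78 ± 0.59 on the log2 scale (adjusted p = 3.39e-04 and 4.52e-05 in edgeR's quasi-likelihood test). Sox19b changed by -0.08 ± 0.21 in that hour and was not called. Over the next 2 h all 4 were called in both knockdowns, where 71.6% of all tested genes were called in ybx1 MO and 72.5% in pabpc1a MO embryos. Sox19b fell by 3.91 ± 0.23 in ybx1 MO and by 2.94 ± 0.22 in pabpc1a MO embryos, and sox2 rose by 9.66 ± 0.58 and 9.94 ± 0.56. The part of poly(A) tail length in these falls of sox19b was not tested.

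By 6 hpf the zygotic genes stood at 0.909 to 1.61 times their WT levels over both knockdowns, both ends being sox2. Sox19a had 505 and 511 CPM in ybx1 MO and 529 and 538 CPM in pabpc1a MO embryos, against 447 and 439 CPM in WT embryos. Sox3 had 480 and 479 CPM in ybx1 MO and 349 and 394 CPM in pabpc1a MO embryos, against 359 and 311 CPM in WT embryos. Sox2 had 80.0 and 76.3 CPM in ybx1 MO and 141 and 136 CPM in pabpc1a MO embryos, against 81.9 and 90.04 CPM in WT embryos. Both knockdowns lay above WT for sox19a, ybx1 MO embryos did for sox3, and pabpc1a MO embryos did for sox2. For sox2 ybx1 MO embryos lay below WT. How many of all tested genes lay wholly above or below WT was not counted.

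None of these differences passed the test. At 6 hpf 0 of the 4 genes were called between ybx1 MO and WT embryos, where 27.5% of all tested genes were, and 0 of 4 between pabpc1a MO and WT embryos, where 9.16% were. Between ybx1 MO and WT embryos the log2 fold changes were -0.24 ± 0.21 for sox19b, 0.20 ± 0.60 for sox19a, 0.52 ± 0.43 for sox3 and -0.14 ± 0.35 for sox2. Of the 4, 0 were past an unadjusted p of 0.05 in edgeR's quasi-likelihood test, where 8730 of 22377 tested genes were. DESeq2 called 0 of them. Sox3 passed when only these 2 groups entered the fit (adjusted p = 0.0135).

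In pabpc1a MO embryos at 6 hpf the changes were 0.59 ± 0.21 for sox19b, 0.27 ± 0.60 for sox19a, 0.15 ± 0.43 for sox3 and 0.69 ± 0.36 for sox2. Sox19b had 72.0 and 58.0 CPM in pabpc1a MO embryos, against 39.7 and 46.8 CPM in WT embryos, and its groups did not overlap. It alone of the 4 was past an unadjusted threshold of 0.05 in edgeR's quasi-likelihood test, where 5315 of 22377 tested genes were. Its adjusted p in that test was 0.0954, and DESeq2 called it (adjusted p = 0.0461). Sox19b and sox2 both passed in the fit without WT and pabpc1a MO at 4 hpf (adjusted p = 0.00222 and 0.00974).

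Between the knockdowns, 0 of the 4 genes were called at 4 hpf, where 16.8% of all tested genes were. Sox19a and sox3 were higher in ybx1 MO than in pabpc1a MO embryos by 1.54 ± 0.62 and 1.04 ± 0.44. Both were past an unadjusted threshold of 0.05 in edgeR's quasi-likelihood test, where 6687 of 22377 tested genes were, and DESeq2 called sox3. Without the second pabpc1a MO library both were called (3.00 and 1.96, adjusted p = 0.0101 and 0.00892). At 6 hpf 1 of the 4 was called, where 27.8% of all tested genes were: sox19b, with 37.0 and 36.3 CPM in ybx1 MO embryos, against 72.0 and 58.0 CPM in pabpc1a MO embryos (-0.83 ± 0.21, adjusted p = 0.00835). That call missed the threshold when any 1 of 3 of the 4 libraries was left out (adjusted p = 0.0529 to 0.0764). Sox2 differed by as much (-0.83 ± 0.36) with a larger error and was not called (adjusted p = 0.104).

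Whether a knockdown's effect changed between hours was tested as a difference of effects. From 3 to 4 hpf the effect of the ybx1 MO changed for 2 of the 4 genes, where 2.05% of all tested genes were called: for sox19a by 5.57 ± 1.19 (adjusted p = 0.0425) and for sox3 by 4.58 ± 0.70 (adjusted p = 0.00847) in edgeR's quasi-likelihood test, from a large deficit at 3 hpf towards WT at 4 hpf. Between 4 and 6 hpf it changed for 1 of 4, where 26.4% of all tested genes were called: sox19b by -1.72 ± 0.30, from an excess at 4 hpf to none at 6 hpf (adjusted p = 7.83e-04). Over the same hours the effect of the pabpc1a MO changed for 3 of 4, where 22.8% of all tested genes were called, with sox19a by 3.60 ± 0.88, sox3 by 2.34 ± 0.62 and sox2 by 2.099 ± 0.70 (adjusted p = 0.0152, 0.0191 and 0.0460). The sox2 change did not pass in 12 of 15 alternatives, and the sox19a change under the ybx1 MO did not in 8 of 15. These tests share the WT 4 hpf libraries. Without the first of them, none of these 3 changes of the pabpc1a MO effect passed (adjusted p = 0.0566, 0.0782 and 0.569).

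Amanitin embryos at 4 hpf held sox19b near its WT level and little sox19a and sox3. Sox19b had 705 and 731 CPM in amanitin embryos, against 681 and 676 CPM in WT embryos of the rRNA-depleted set. Sox19a had 1.40 and 1.31 CPM in amanitin embryos, against 136 and 138 CPM in WT embryos. Sox3 had 1.30 and 1.68 CPM in amanitin embryos, against 92.8 and 95.4 CPM in WT embryos. Sox19a and sox3 in amanitin embryos stood at 0.00989 and 0.0159 of their WT levels. No vehicle control is named, and how far transcription was blocked was not tested.

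All 4 genes were called between WT and amanitin embryos at 4 hpf, where 68.9% of all tested genes were. Log2 fold changes of WT over amanitin were 6.66 ± 0.09 for sox19a and 5.98 ± 0.10 for sox3 (adjusted p = 3.21e-23 and 7.63e-22 in edgeR's quasi-likelihood test). For sox2, with 0.0433 and 0.164 CPM in amanitin embryos, against 0.762 and 0.416 CPM in WT embryos, it was 2.49 ± 0.76 (adjusted p = 0.00685), and the call ended without the first amanitin library (adjusted p = 0.0753) or the first WT library (0.118). For sox19b it was -0.08 ± 0.03, a ratio of 0.945 (adjusted p = 0.0255). That small difference was no longer called with median-of-ratios scaling (adjusted p = 0.554), with DESeq2 (0.598) or with a filter at 1 CPM in 2 libraries (0.360), nor without the second amanitin (0.202) or the second WT library (0.0878).

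**Figure D4:**
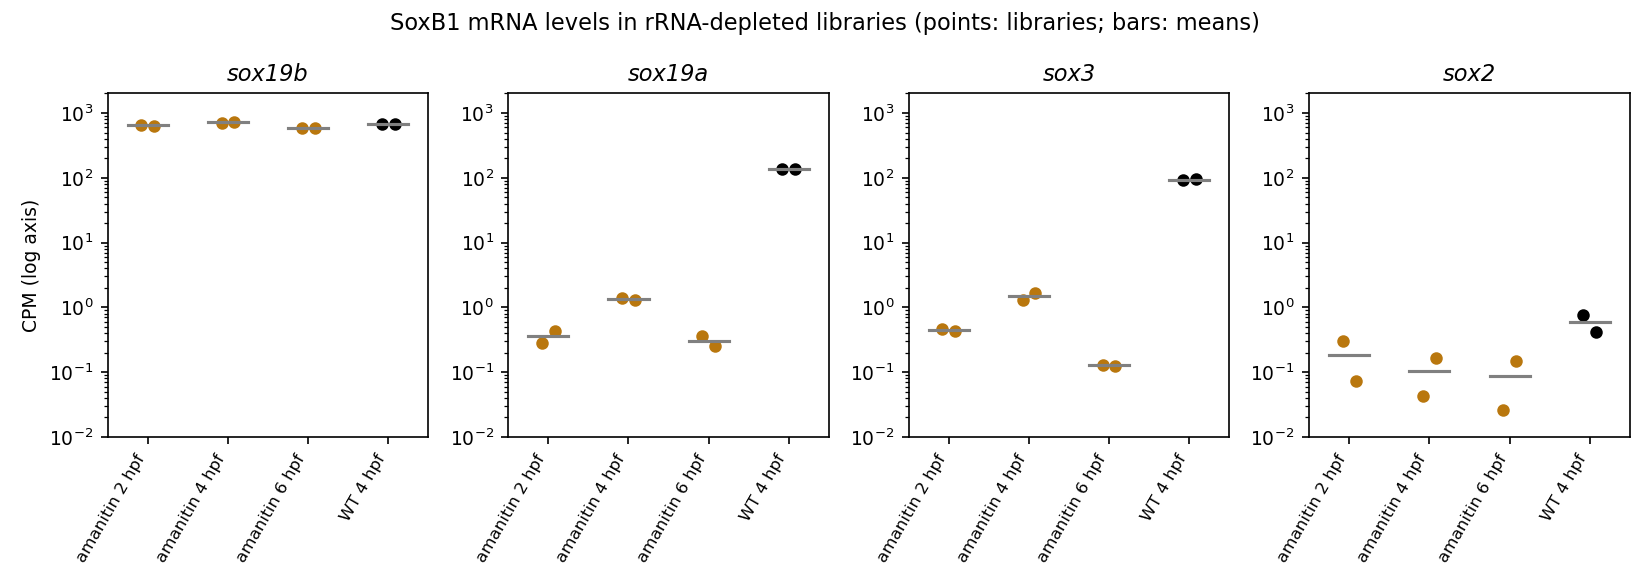
Levels of the 4 SoxB1 genes in rRNA-depleted libraries, in CPM on a log axis, with a point per library and a bar at the mean of 2 (brown, amanitin at 2, 4 and 6 hpf; black, WT at 4 hpf). Sox19b lies between 581 and 731 CPM in all 8 libraries, while at 4 hpf sox19a and sox3 lie 101-fold and 63.0-fold lower in amanitin than in WT embryos.

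Over the amanitin series sox19b varied little, with 659 and 636 CPM at 2 hpf, 705 and 731 at 4 hpf, and 581 and 583 at 6 hpf. In poly(A) libraries of WT embryos, by comparison, it had 39.7 and 46.8 CPM at 6 hpf. No rRNA-depleted WT library at 6 hpf was analysed here, so those 2 values come from different kits and were not tested. From 2 to 4 hpf under amanitin 3 of the 4 genes were called, where 32.3% of all tested genes were, all higher: sox19b by 0.15 ± 0.03, sox19a by 1.91 ± 0.19 and sox3 by 1.74 ± 0.18 on the log2 scale (adjusted p = 7.43e-04, 6.29e-08 and 1.502e-07 in edgeR's quasi-likelihood test). At 2 hpf sox19a stood at 20 and 30 reads, 0.286 and 0.434 CPM.

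Between 4 and 6 hpf under amanitin 3 of the 4 were called, where 67.7% of all tested genes were, all lower: sox19b by -0.30 ± 0.03, sox19a by -2.14 ± 0.23 and sox3 by -3.53 ± 0.29 (adjusted p = 1.36e-08, 2.72e-08 and 2.69e-10 in edgeR's quasi-likelihood test). At 6 hpf sox3 had 5 reads in each library. The amanitin libraries at 6 hpf also held 426 and 396 CPM of the yolk protein gene vtg1, against 0.246 and 0.218 CPM at 4 hpf, and 144 and 133 CPM of vtg2, and the part of this in the SoxB1 values was not tested. Enveloping layer markers summed to 3.34 to 10.2 CPM over the 6 amanitin libraries, against 1145 and 1134 CPM in WT embryos at 4 hpf.

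The partners of Sox19b in genome activation followed other courses. Nanog, a homeobox gene, had 1061 ± 21.0 CPM at 0 hpf, 726 ± 1.92 at 2 hpf, 732 ± 62.8 at 3 hpf, 950 ± 78.3 at 4 hpf and 87.1 ± 7.77 at 6 hpf in WT embryos (SD, n = 2). Pou5f3, a POU-domain gene, had 378 ± 29.5, 440 ± 1.496, 438 ± 18.2, 642 ± 181 and 1082 ± 135 CPM at those hours. Nanog fell by 3.45 ± 0.16 on the log2 scale between 4 and 6 hpf while pou5f3 rose by 0.75 ± 0.14. At 6 hpf, when no SoxB1 gene was called, nanog was higher in ybx1 MO (1.09 ± 0.15) and in pabpc1a MO embryos (0.74 ± 0.15) than in WT embryos, and pou5f3 was higher in ybx1 MO embryos (0.62 ± 0.14; adjusted p = 7.55e-05, 0.00547 and 0.00462 in edgeR's quasi-likelihood test).

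At 4 hpf pou5f3 was lower in ybx1 MO (-0.54 ± 0.14) and in pabpc1a MO embryos (-0.59 ± 0.14) than in WT embryos, and nanog was lower in pabpc1a MO embryos (-0.41 ± 0.15; adjusted p = 0.00999, 0.00521 and 0.0431). Nanog differed by -0.02 ± 0.15 in ybx1 MO embryos. Both genes kept much of their level under amanitin at 4 hpf, with nanog at 646 and 645 CPM in amanitin embryos, against 1104 and 1084 CPM in WT embryos. Pou5f3 had 331 and 347 CPM in amanitin embryos, against 563 and 534 CPM in WT embryos.

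Maternal egg mRNAs gave a scale for the fall of sox19b in poly(A) libraries. The selection responds to poly(A) tail length, which was not measured, and its part in these changes was not tested. In WT embryos 9 of the 9 listed fell between 4 and 6 hpf, where 59.7% of all tested genes were called, with a median log2 fold change of -2.84, against -0.07 over all tested genes and -2.20 for sox19b. Cth1, mos and buc, all expressed in the oocyte, changed by -2.84, -3.20 and -4.34. From 0 to 2 hpf, when sox19b rose, 7 of the 9 were lower and 1 was higher (median -1.25, against 0.03 over all tested genes, of which 34.3% were called), the higher one being buc at 0.86 ± 0.20, named after its value was seen. At 4 hpf, 6 of the 9 were higher in ybx1 MO and 8 of 9 in pabpc1a MO than in WT embryos, with medians of 0.55 and 1.20, against -0.06 and -0.08 over all tested genes, of which 32.2 and 34.3% were called, and 1.48 and 1.33 for sox19b.

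Genes of the early neural ectoderm, where SoxB1 proteins act later, moved in both directions. Of 23 listed, only 11 matched a symbol, and 10 of these passed the filter in poly(A) libraries. At 4 hpf 4 of 10 were lower and 0 higher in ybx1 MO embryos, with a median of -0.72, and 4 were lower and 2 higher in pabpc1a MO embryos, with a median of -0.61. Of all tested genes 32.2 and 34.3% were called in these comparisons, with medians of -0.06 and -0.08. Cyp26a1, which degrades retinoic acid, was lower by -1.44 ± 0.15 in ybx1 MO and -1.34 ± 0.15 in pabpc1a MO embryos. Gbx2 (0.75 ± 0.51) and irx7 (0.01 ± 0.30) were not called in ybx1 MO embryos at 4 hpf. At 3 hpf 1 of the 10 was lower in ybx1 MO embryos, where 14.8% of all tested genes were called. This was irx7, by -6.39 ± 0.42 (adjusted p = 8.20e-07 in edgeR's quasi-likelihood test).

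At 6 hpf 2 of the 10 neural genes were lower and 0 higher in each knockdown, where 27.5% (ybx1 MO) and 9.16% (pabpc1a MO) of all tested genes were called. Neurog1, a proneural gene, was among them in both, by -3.09 ± 0.56 in ybx1 MO and -2.10 ± 0.52 in pabpc1a MO embryos. Its levels were low, with means of 1.06 CPM in WT, 0.123 in ybx1 MO and 0.252 in pabpc1a MO embryos. In WT embryos at 0 hpf its mean was 0.783 CPM. Zic5 differed by 0.07 ± 0.31 in ybx1 MO and 0.31 ± 0.30 in pabpc1a MO embryos at 6 hpf. In WT embryos 4 of 10 rose between 4 and 6 hpf and 2 fell, against 59.7% of all tested genes called, with otx2a up by 5.16 ± 0.49. At 4 hpf 5 of 9 neural genes tested in rRNA-depleted libraries were higher and 1 lower in WT than in amanitin embryos, where 68.9% of all tested genes were called.

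Ventral and non-neural ectoderm genes formed a second ectoderm list, of which only 7 of 15 matched a symbol. Of 7 tested, 0 were higher and 4 lower in ybx1 MO embryos at 4 hpf (median -2.04), and 1 was higher and 6 lower in pabpc1a MO embryos (median -3.22), where 32.2 and 34.3% of all tested genes were called, with medians of -0.06 and -0.08. Bmp7a, a ligand of the BMP pathway, was lower by -5.33 ± 0.70 in ybx1 MO and -4.70 ± 0.67 in pabpc1a MO embryos. At 6 hpf 1 of 7 was lower in pabpc1a MO embryos, against 9.16% of all tested genes called, tp63 by -1.004 ± 0.24 (adjusted p = 0.0139 in edgeR's quasi-likelihood test). In ybx1 MO embryos at 6 hpf the median was -0.06, with bmp4 at -1.30 ± 0.55 and gata3 at 0.69 ± 0.68, neither called. Both ectoderm lists thus held members that were lower at 4 hpf, and a difference between the lists was not tested.

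Other members of the Sox family were set beside these genes. Of 17 further Sox genes outside group B, 8 matched a symbol and 6 were tested in poly(A) libraries. In WT embryos 2 of the 6 rose and 1 fell between 4 and 6 hpf, where 59.7% of all tested genes were called. The 1 that fell was sox13, by 1.28 ± 0.16 on the log2 scale. At 4 hpf 1 of the 6 was called in ybx1 MO embryos, where 32.2% of all tested genes were: sox13, higher by 0.59 ± 0.16. In pabpc1a MO embryos of that hour sox13 differed by 0.22 ± 0.16 and was not called. In ybx1 MO embryos at 3 hpf 1 of the 6 was called, where 14.8% of all tested genes were: sox7 (1.77 ± 0.57, adjusted p = 0.0448). In pabpc1a MO embryos at 6 hpf 1 of the 6 was called, where 9.16% of all tested genes were: sox13 (-0.97 ± 0.17, adjusted p = 0.00175). Both p-values come from edgeR's quasi-likelihood test. Between WT and amanitin embryos at 4 hpf all 4 of those tested were called, 1 higher and 3 lower in WT, where 68.9% of all tested genes were. Among group B, sox21a fell by 3.53 ± 0.73 from 4 to 6 hpf in WT embryos and sox14 was not called in that comparison. Sox1a and sox1b, the remaining SoxB1 genes, had no matching symbol.

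Within the 10 poly(A) groups the members' patterns were compared as Pearson's r of the group means of log2(CPM + 1). This is a description over means that share their library scaling. Sox19a and sox3 gave r = 0.995, sox19a and sox2 0.805, and sox3 and sox2 0.775. Sox19b gave -0.666 with sox19a, -0.623 with sox3 and -0.855 with sox2. The 8925 genes compared had a symbol and at least 10 CPM in a group. Among them akap12b (r = 0.998) and NET1 (0.997) were most like sox19a. Sox3 came next (0.996), and GADD45B and BMP2, a BMP ligand, followed (both 0.995).

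Nearest to sox3 stood DUSP6, a phosphatase of the MAP kinase pathway (r = 0.996), then sox19a (0.996), slc25a55a (0.995), nnr (0.994) and FZD8, a Wnt receptor (0.992). Sox2 ran most like fgf24, a fibroblast growth factor (0.998), PXDC1 (0.998), mespab (0.997), TBXT, a Brachyury gene (0.997), and ALDH1A2, which makes retinoic acid (0.997). Sox19b ran most like si:cabz01015815.2 (0.992), snapc2 (0.990), MFSD6 (0.990), si:dkey-30k6.5 (0.989) and SH3RF1 (0.989). The names are those of the symbol table. With a pseudocount of 0.1 in place of 1, 5 of the 5 names stayed for sox19b and 3 of 5 for each other gene, and over the 5 WT groups 1, 1, 3 and 1 stayed for sox19b, sox19a, sox3 and sox2.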

How the data were processed

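Whole zebrafish embryos of the AB strain were sequenced as 28 libraries in 14 groups of 2. The deposited files hold raw counts per gene that the authors made with TopHat2 2.1.1 and HTSeq 0.6.0, per the submitters' processing notes. Genome build, annotation and strand setting were not given in the sources used here. In 14 of the files, those of the ybx1 MO and rRNA-depleted libraries, the summary lines of the counter stand below the genes and were left out. The files of poly(A) WT and pabpc1a MO libraries held none. This difference between files thus runs along with the ybx1 MO in its comparisons, and its part was not tested. Reads shared by near-identical genes could be split or lost in such counting. Symbols came from a table that named 21939 of 33737 identifiers.

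Poly(A) and rRNA-depleted libraries were fitted apart with edgeR 4.0.16 in R 4.3.3 (limma 3.58.1): low-count filter by group (22377 and 21525 genes tested), TMM scaling, quasi-likelihood test with robust spread over all groups of a kit (10 and 4 residual degrees of freedom), Benjamini-Hochberg adjustment over all tested genes, threshold 0.05. The SE is the log2 fold change divided by the root of F. The code was tested on simulated data. Alternatives were DESeq2 1.42.0, other scaling and filters, a replicate block, only the groups compared, and leaving out libraries. No replicate pair agreed within sampling noise (lowest chi-square per degree of freedom 4.80). Shares of SoxB1 reads were planned per coding length; no length of the files' build was at hand, so reads were not divided. Members, gene lists and tests were chosen with earlier results of these data known. Named genes are the members, nanog and pou5f3, the 5 genes most like each member, and from each list up to 3 called genes of lowest adjusted p and 2 not called. A floor is 3 counts per library and covers counting error only.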

Additional observations from a re-analysis of the deposited data

Results flagged for a closer look

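In 6 cases the effect of a knockdown on a SoxB1 gene differed between hours by a test of the difference itself (edgeR's quasi-likelihood test, difference of log2 fold changes, later minus earlier hour). For the ybx1 MO from 3 to 4 hpf these were sox19a (5.57) and sox3 (4.58), where 2.05% of all tested genes were called. From 4 to 6 hpf it was sox19b (-1.72), where 26.4% of all tested genes were called. For the pabpc1a MO from 4 to 6 hpf they were sox19a (3.60), sox3 (2.34) and sox2 (2.099), where 22.8% of all tested genes were called. Sox19b kept its call from 4 to 6 hpf in each of the 15 alternatives, with adjusted p up to 0.0209. The others each lost theirs in at least 1: sox2 in 12 of 15, sox19a in 8 of 15 for the ybx1 MO and 2 of 15 for the pabpc1a MO, and sox3 in 2 and 3 of 15. Causes were not tested.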

How the results depend on the processing

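Of the 88 results for single SoxB1 genes none reversed a call, and most kept their side of the threshold: 78 of 88 under DESeq2, 86 of 88 with median-of-ratios scaling, 83 of 88 with no filter on low counts, 63 of 84 with only the compared groups in the fit, 36 of 44 in a fit without WT and pabpc1a MO at 4 hpf or, among rRNA-depleted libraries, amanitin at 6 hpf (chosen after seeing the data) and 355 of 400 with 1 library left out. Causes were not tested.

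Changes in the number of members called included the following. This list is not complete, and further gains and losses are given with their comparisons above. The number of all tested genes called changed with several of these settings too, as given in the last paragraph. Where such a number is given, the changed member count cannot be read as particular to the SoxB1 genes. For the other settings and comparisons, and for the fits with 1 library left out, numbers over all genes are not given. Those member counts cannot be set against a share of all genes. With only the compared groups in the fit they were 0 for WT 4 against 3 hpf, for both knockdowns against WT at 4 hpf and for the change of the pabpc1a MO effect; 1 for ybx1 MO and pabpc1a MO against WT at 6 hpf, for ybx1 MO at 4 hpf against WT at 3 hpf and for the ybx1 MO effect from 3 to 4 hpf; and 3 for ybx1 against pabpc1a MO at 6 hpf and the ybx1 MO effect from 4 to 6 hpf. DESeq2 gave 1 for pabpc1a MO against WT at 6 hpf, for the knockdowns against each other at 4 hpf and for ybx1 MO at 4 hpf against WT at 3 hpf, and 3 for the ybx1 MO effect from 4 to 6 hpf. Without WT and pabpc1a MO at 4 hpf there were 4 for ybx1 MO against WT at 3 hpf, 2 for pabpc1a MO against WT and for ybx1 against pabpc1a MO at 6 hpf, and 3 for ybx1 MO at 4 hpf against WT at 3 hpf. No filter gave 1 for ybx1 MO against WT at 4 hpf and for the ybx1 MO effect from 3 to 4 hpf. At 1 CPM in 2 libraries it was 2 for WT against amanitin, of 3 tested, and 2 for the ybx1 MO effect from 4 to 6 hpf. A threshold of 0.01 gave 1, 1 and 0 for ybx1 MO against WT at 4 hpf, the ybx1 MO effect from 3 to 4 hpf and the pabpc1a MO effect.

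Leaving out 1 library gave 1 to 2 members called for WT 3 against 2 hpf, 2 to 4 for WT 4 against 3 and 6 against 4 hpf, 1 to 4 for ybx1 MO and 3 to 4 for pabpc1a MO against WT at 4 hpf, 3 in every case for WT against amanitin, 0 to 2 and 0 to 1 for the knockdowns against each other at 4 and 6 hpf, 0 to 3 and 1 to 3 for the ybx1 MO effect from 3 to 4 and 4 to 6 hpf, and 0 to 4 for the pabpc1a MO effect.

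Replicate numbers did not pair the samples (correlation of same-numbered deviations -0.213 to 0.448 over 19 comparisons). With the replicate block sox19a lost its call for the ybx1 MO effect from 3 to 4 hpf (adjusted p = 0.0525), which left 1 member called, sox2 lost its call for the pabpc1a MO effect (0.0564), and 86 of 88 kept their side.

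Over all genes, calls for WT 3 against 2 hpf were 1026, against 1997 under DESeq2 and 4562 with only those groups; with only the compared groups they were 0 in place of 6161 for WT 4 against 3 hpf, 1009 in place of 7207 for ybx1 MO and 0 in place of 7683 for pabpc1a MO at 4 hpf, 7251 in place of 3311 for ybx1 MO at 3 hpf, 779 in place of 2050 for pabpc1a MO at 6 hpf, 2829 in place of 1737 for ybx1 MO 4 against 3 hpf, 4790 in place of 3137 and 2666 in place of 1170 for the knockdowns at 4 hpf against WT at 3 hpf, and 77, 3477 and 1340 in place of 458, 5898 and 5109 for the 3 changes of effect. DESeq2 gave 2301 for pabpc1a MO at 4 hpf against WT at 3 hpf and 1407 for the ybx1 MO effect from 3 to 4 hpf. Without WT and pabpc1a MO at 4 hpf the numbers were 2034, 5308, 3262, 2747 and 4770 for WT 3 against 2 hpf, ybx1 MO at 3 hpf, pabpc1a MO at 6 hpf, ybx1 MO 4 against 3 hpf and ybx1 MO at 4 hpf against WT at 3 hpf. The share of calls that were higher in ybx1 MO embryos at 3 hpf was 30.8%, but 43.2% under DESeq2, 41.3% with median-of-ratios scaling and 47.4% without the most abundant gene; for ybx1 MO 4 against 3 hpf it was 61.9%, but 49.5% without that gene. Between 4 and 6 hpf the median gene shifted up by 0.28 (WT), 0.35 (ybx1 MO) and 0.32 (pabpc1a MO) on the log2 scale when libraries were scaled by median of ratios, with the called SoxB1 directions kept. Shares per coding length were not run, and depth limits sox2 before 6 hpf.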
